A study of Mus musculus with 16 samples.

Results

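The 32 genes described here are fibroblast growth factor (FGF) ligands, their receptors and the genes that act back on the FGF signal. They were taken by gene symbol from the 56748 genes of the deposited expression table. The set holds 10 secreted ligands (Fgf2, Fgf3, Fgf4, Fgf5, Fgf7, Fgf9, Fgf15, Fgf16, Fgf18 and Fgf20) and 4 intracellular FGF homologous factors (Fgf11, Fgf12, Fgf13 and Fgf14). It also holds 4 receptors with a kinase domain (Fgfr1 to Fgfr4) and 1 receptor without one (Fgfrl1). The remaining 13 genes are 8 feedback inhibitors (Spry1, Spry4, Spred1, Spred2, Spred3, Dusp4, Dusp6 and Il17rd), 3 ETS transcription factors (Etv1, Etv4 and Etv5) and 2 receptor partners (Flrt2 and Flrt3).

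RNA came from the trunk region or the caudal region of mouse embryos of stage E11.5 (embryonic day), at mid-gestation. Embryos were either Ednrb+/+, called WT here, or Ednrb-/-, homozygous for a targeted mutation of the endothelin B receptor gene. The 4 groups were WT trunk, Ednrb-/- trunk, WT caudal and Ednrb-/- caudal tissue, with 4 libraries each. The series asks how the tissue around pigment cells bears on where pigmented spots form when this receptor is missing. The sources used here do not give the strain, the altered part of Ednrb, the exact cuts between the regions, the pooling of embryos or the embryo behind each region. The p-values therefore measure the spread between these samples, some of which may share an embryo. In such bulk tissue, fewer cells of a type and less RNA per cell cannot be told apart.

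Values are FPKM (fragments per kilobase of a gene, scaled to library size), and libraries held 34883821 to 43444905 reads in listed genes. Ednrb stood at 26.2 to 41.8 FPKM in the 8 WT libraries and at 1.59 to 4.80 FPKM in the 8 Ednrb-/- libraries. Hoxd13, a gene of the posterior body, had a mean of 17.2 FPKM in WT caudal and 0.129 FPKM in WT trunk tissue. The tailbud genes Cdx2 and Msgn1 were at 0 in all 4 WT trunk libraries, and Cdx4 was at 0 in all 4 Ednrb-/- trunk libraries. In 3 libraries (WT caudal replicate 2, Ednrb-/- trunk replicate 3 and Ednrb-/- caudal replicate 3) the X-linked Xist and the Y-linked Ddx3y were both at 5 FPKM or more. A female pattern, Xist at 135 FPKM or more and Ddx3y at 0.977 FPKM or less, was seen in WT trunk replicates 1 and 4. WT caudal replicate 1 and Ednrb-/- trunk replicate 2 also had it, and no Ednrb-/- caudal library did. Sex was thus not balanced across the groups. Genes that are high early in development and genes that are high later were set beside the members in separate lists. These lists were chosen with earlier results of these data known, so their counts are no independent result. All 8 genes of an early list (among them Lin28a, Lin28b and Igf2bp1) were called higher in Ednrb-/- tissue in both genotype comparisons. Over all tested genes 21.7% were called higher in the caudal region and 12.2% in the trunk. Of 8 later genes (among them Nfia, Nfib and the globin gene Hbb-bs), 8 were called lower in the caudal region and 7 in the trunk. The shares of all tested genes called lower were 19.9% and 13%. The summed early genes spanned 150 to 171 FPKM in WT trunk and 240 to 268 FPKM in Ednrb-/- trunk, and 224 to 241 FPKM against 331 to 423 FPKM in the caudal region. The later genes summed to 138 to 170 FPKM in WT trunk and 44.8 to 58.9 FPKM in Ednrb-/- trunk, and 123 to 181 FPKM against 26.2 to 70.5 FPKM in the caudal region. The part of these lists in the FGF results was not tested.

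Secreted FGF ligands bind receptor tyrosine kinases together with heparan sulfate and, in most cells, drive the RAS, RAF, MEK and ERK cascade. The homologous factors Fgf11 to Fgf14 are not secreted and act inside neurons, where they are known as partners of voltage-gated sodium channels. ERK signalling induces its own brakes. Sprouty and Spred proteins act at RAS and RAF, the phosphatases Dusp6 and Dusp4 remove phosphate from ERK, and Il17rd (Sef) restrains the pathway at the membrane and in the cytoplasm. The ETS factors Etv4 and Etv5 are widely used transcriptional readouts of FGF activity. In the embryo, Fgf3, Fgf4, Fgf8 and Fgf17 are known from the tailbud, Fgf9 and Fgf7 from signalling between epithelium and mesenchyme, and Fgfr4 from developing muscle.

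The promoters of 5 members called in the genotype comparisons are shown as examples. These are not the 5 members with the largest differences. Dusp6 and Spred2 were higher in Ednrb-/- tissue of both regions, Etv5 and Il17rd in the trunk, and Fgf11 was lower in both. Each promoter is the 250 bases before the RefSeq start on build GRCm38.p6, written 5′ to 3′ on the gene's strand. This build is not the mm39 of the deposited table. The windows are chr10:99262981-99263230 on the plus strand (Dusp6), chr11:19924192-19924441 on the plus strand (Spred2), chr16:22439571-22439820 on the minus strand (Etv5, the first of 2 listed starts), chr14:27038751-27039000 on the plus strand (Il17rd) and chr11:69802281-69802530 on the minus strand (Fgf11). Capitals mark GGAA on the printed strand and TTCC, the same motif on the other strand, the core letters bound by ETS factors.
Dusp6: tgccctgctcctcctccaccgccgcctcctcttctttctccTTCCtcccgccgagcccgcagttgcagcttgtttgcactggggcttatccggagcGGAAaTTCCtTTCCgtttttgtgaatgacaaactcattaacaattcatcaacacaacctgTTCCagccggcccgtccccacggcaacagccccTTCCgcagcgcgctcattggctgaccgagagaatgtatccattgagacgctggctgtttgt
Spred2: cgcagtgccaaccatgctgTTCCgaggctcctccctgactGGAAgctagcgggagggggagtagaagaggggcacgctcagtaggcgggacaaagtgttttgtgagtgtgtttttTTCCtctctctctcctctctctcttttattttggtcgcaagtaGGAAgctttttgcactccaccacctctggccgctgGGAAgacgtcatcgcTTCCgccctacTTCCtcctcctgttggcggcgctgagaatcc
Etv5: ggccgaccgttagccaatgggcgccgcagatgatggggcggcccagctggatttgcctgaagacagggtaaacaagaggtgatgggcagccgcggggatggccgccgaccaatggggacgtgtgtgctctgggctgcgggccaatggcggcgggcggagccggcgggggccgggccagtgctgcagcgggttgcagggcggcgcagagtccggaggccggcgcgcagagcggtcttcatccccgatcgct
Il17rd: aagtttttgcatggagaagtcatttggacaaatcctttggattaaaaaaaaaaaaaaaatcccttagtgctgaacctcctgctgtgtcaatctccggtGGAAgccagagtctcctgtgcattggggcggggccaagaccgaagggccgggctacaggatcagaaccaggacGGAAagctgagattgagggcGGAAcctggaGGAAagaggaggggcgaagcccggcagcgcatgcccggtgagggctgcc
Fgf11: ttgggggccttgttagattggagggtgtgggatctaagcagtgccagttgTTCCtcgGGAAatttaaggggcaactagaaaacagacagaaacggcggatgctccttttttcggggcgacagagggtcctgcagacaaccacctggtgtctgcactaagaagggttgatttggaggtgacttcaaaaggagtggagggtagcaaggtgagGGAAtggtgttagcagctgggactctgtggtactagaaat
The windows hold 6 such matches for Dusp6, 7 for Spred2, 0 for Etv5, 4 for Il17rd and 3 for Fgf11. The core is common: 93.4% of all 32851 mouse windows of the same length in the table hold it on either strand, with a median of 3 matches. The longer motif CGGAAG, which contains the core, is in 13.6% of all windows. It occurs in 4 of the 25 members with an entry (Dusp6, Spred2, Spred1 and Fgfrl1). The 7 members without an entry are Fgf15, Fgf16, Fgf20, Fgfr1, Spry4, Dusp4 and Etv4. Of the 4 with the longer motif, Dusp6 and Spred2 were called in both genotype comparisons, and Spred1 and Fgfrl1 in neither. Of the 30 tested members 10 were called in neither, and of all 17205 tested genes 8775. Whether the motif goes with the calls was not tested. These matches describe letters only.

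Of the 32 genes, 30 reached 0.5 FPKM in at least 4 libraries and were tested with limma on log2(FPKM + 0.5) among 17205 genes, with Benjamini-Hochberg adjustment and a threshold of 0.05. Fgf16 and Fgf20 were below that filter. In the caudal region 14 of the 30 genes differed between Ednrb-/- and WT, 4 higher and 10 lower, where 41.6% of all tested genes were called (21.7% higher and 19.9% lower). In the trunk 17 of the 30 differed, 7 higher and 10 lower, where 25.1% of all genes were called (12.2% higher and 13% lower). The median difference of the 30 genes was -0.09 in the caudal region and 0.02 in the trunk on the log2 scale, and over all tested genes it was 0.0068 and 0.0040. Among the lowered genes, 6 of 10 in the caudal region and 8 of 10 in the trunk were secreted ligands or homologous factors. Among the raised genes, feedback inhibitors and ETS factors made up 2 of 4 in the caudal region and 5 of 7 in the trunk. The 30 tested genes themselves hold 8 secreted ligands, 4 homologous factors, 8 feedback inhibitors and 3 ETS factors. Whether the shares by role depart from this make-up was not tested.

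The 2 genotype comparisons share no library. In both regions 8 genes were called lower: Fgf7, Fgf9, Fgf11, Fgf12, Fgf13, Fgf15, Fgfr4 and Flrt2, which are 8 of the 10 lowered genes of each region. Fgfr2, Spred2 and Dusp6 were called higher in both, 3 of 4 raised genes in the caudal region and 3 of 7 in the trunk. None of the 30 genes was called in opposite directions. Over all tested genes, 1595 were called lower in both of 3432 in the caudal region and 2229 in the trunk, 1396 were called higher in both, and 64 in opposite directions. The caudal split depended on how libraries were scaled: 4 higher and 10 lower became 1 higher (Dusp6) and 17 lower on a TPM scale, 2 and 14 when each library was scaled by its summed listed reads, and 2 and 15 with limma voom on the reads. Over all genes the caudal split moved likewise, from 3732 higher and 3432 lower to 2219 and 5017 on the TPM scale. In the trunk the members' split was 7 higher and 10 lower under each of these scalings. The library total behind the deposited FPKM differed by genotype from the summed listed reads. It was 1.013 to 1.035 times that sum in WT libraries and 0.949 to 1.006 times in Ednrb-/- libraries. Small genotype differences therefore depend on the total chosen, and which total is the better one was not tested.

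**Figure D1:**
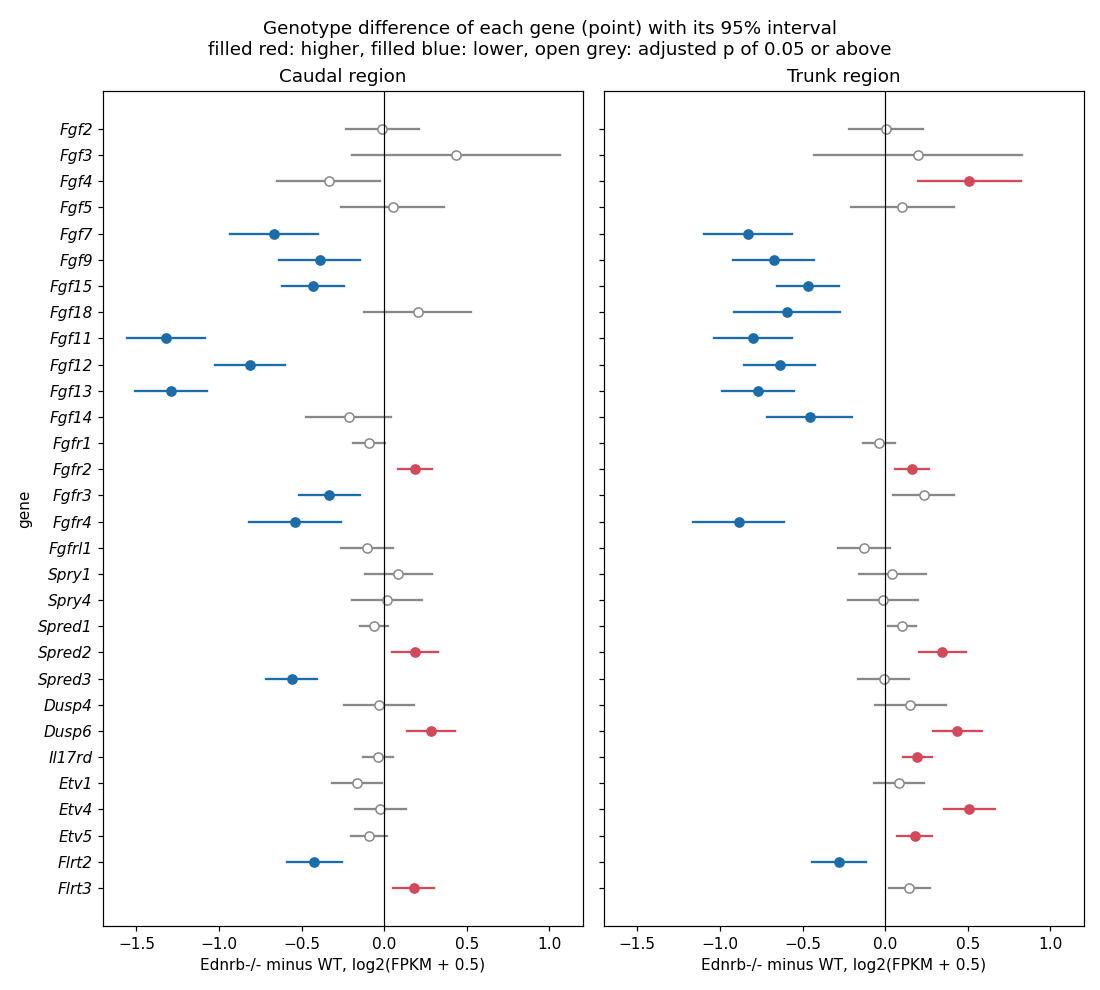
Genotype difference of each of the 30 tested genes, Ednrb-/- minus WT on the log2(FPKM + 0.5) scale (x axis), in the caudal region (left) and the trunk (right), with 95% intervals from limma. Filled red points were called higher and filled blue points lower; Fgf11 and Fgf13 lie farthest to the left in the caudal region.

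Of the 8 tested secreted ligands of the set, 3 were lower and 0 higher in Ednrb-/- caudal tissue, and in the trunk 4 were lower and Fgf4 was higher. These are 37.5% and 62.5% of the 8 ligands, where 41.6% and 25.1% of all tested genes were called. Fgf7, a ligand made by mesenchyme for epithelial receptors, stood at 1.08, 1.20, 1.31 and 1.58 FPKM in the 4 WT trunk libraries and at 0.443, 0.489, 0.536 and 0.545 FPKM in the Ednrb-/- trunk libraries. Caudal libraries held 0.454, 0.518, 0.522 and 0.728 FPKM in WT and 0.0530, 0.151, 0.166 and 0.302 FPKM in Ednrb-/-. The genotypes did not overlap in either region, and the ranges of Ednrb-/- trunk and WT caudal libraries did. Fgf7 fell by 0.83 ± 0.12 (SE) on the log2 scale in the trunk (adjusted p = 0.000291) and by 0.67 ± 0.12 in the caudal region (adjusted p = 0.000593). Its mean FPKM in Ednrb-/- tissue was 0.390 times that of WT in the trunk and 0.302 times in the caudal region. The Ednrb-/- caudal values rest on 6, 18, 19 and 35 reads, and over the alternatives the caudal difference ranged from -1.98 to -0.41 on the log2 scale, past the threshold in each.

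Fgf9, a ligand of epithelia that signals to mesenchyme, was lowered in the same way. Trunk libraries held 1.83, 1.94, 2.16 and 2.27 FPKM in WT and 0.681, 1.19, 1.28 and 1.32 FPKM in Ednrb-/-. In caudal tissue the values were 0.918, 1.01, 1.02 and 1.05 FPKM in WT and 0.621, 0.637, 0.648 and 0.663 FPKM in Ednrb-/-. All WT libraries lay above all Ednrb-/- libraries of their region, and 1 Ednrb-/- trunk library stood below the other 3. Fgf9 fell by 0.68 ± 0.12 in the trunk (adjusted p = 0.000704) and by 0.39 ± 0.12 in the caudal region (adjusted p = 0.0124). Fgf15, the mouse counterpart of human FGF19, was the ligand with the highest mean in WT trunk tissue on the FPKM scale. It stood at 3.40, 3.73, 3.79 and 4.08 FPKM there and at 2.38, 2.46, 2.54 and 2.93 FPKM in Ednrb-/- trunk libraries, and fell by 0.47 ± 0.09 (adjusted p = 0.00161). Caudal values were 2.35, 2.50, 2.97 and 3.14 FPKM in WT and 1.66, 1.89, 1.90 and 2.15 FPKM in Ednrb-/-, and Fgf15 fell by 0.43 ± 0.09 (adjusted p = 0.00126). The groups did not overlap in either region, and the difference between the 2 falls was -0.04 ± 0.13 with a 95% interval of -0.30 to 0.23.

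Fgf18, which acts in cartilage and limb mesenchyme, differed by genotype in the trunk. Trunk libraries held 2.23, 2.79, 2.98 and 3.14 FPKM in WT and 1.32, 1.70, 1.80 and 1.90 FPKM in Ednrb-/-, without overlap, and Fgf18 fell by 0.59 ± 0.15 (adjusted p = 0.00996). Caudal libraries held 2.29, 3.13, 4.03 and 4.08 FPKM in WT and 3.40, 3.60, 3.82 and 4.82 FPKM in Ednrb-/-, and these ranges overlapped. The caudal difference was 0.20 ± 0.15 (adjusted p = 0.31). The 2 genotype differences themselves differed by -0.80 ± 0.21 (trunk minus caudal, adjusted p = 0.0385), where 6.76% of all genes had such a called interaction. That call was lost in 13 of 27 alternatives, with adjusted p from 0.05 to 0.0883. They included no filter, the replicate number as a block and the fits without each of 11 libraries, all but WT trunk replicate 3, WT caudal replicates 2 and 3, Ednrb-/- trunk replicate 4 and Ednrb-/- caudal replicate 3. Sclerotome and cartilage markers moved differently: 9 of 9 tested were called lower in the caudal region and 2 of 9 in the trunk, and their part in the Fgf18 result was not tested.

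Fgf3, Fgf4 and Fgf15 lie together on chromosome 7 of mm39 within 62.9 kb, at chr7:144391820-144398173, chr7:144401104-144418980 and chr7:144450268-144454690, all on the plus strand and all coding for protein. Fgf15 fell in both regions, while Fgf4 rose in the trunk. Fgf4, a ligand of the limb ridge, the tailbud and muscle precursors, stood at 0.350, 0.398, 0.586 and 0.593 FPKM in WT trunk and at 0.699, 0.875, 0.983 and 1.02 FPKM in Ednrb-/- trunk libraries. The groups did not overlap and Fgf4 rose by 0.51 ± 0.15 (adjusted p = 0.0193). In caudal tissue it stood at 0.603, 0.655, 0.685 and 1.03 FPKM in WT and at 0.310, 0.377, 0.566 and 0.697 FPKM in Ednrb-/-, a difference of -0.34 ± 0.15 (adjusted p = 0.0789) with overlapping ranges. The caudal difference passed the test on the TPM scale, with voom and without Ednrb-/- caudal replicate 1 (adjusted p 0.0309 to 0.0427). The interaction was 0.84 ± 0.21 (adjusted p = 0.0265). These values rest on 35 to 131 reads per library. The trunk call was lost without each of 4 libraries (WT trunk replicates 2 and 3, Ednrb-/- trunk replicates 2 and 4; adjusted p 0.0517 to 0.062). The interaction call was lost with no filter and without each of WT trunk replicate 2, Ednrb-/- trunk replicate 1 and Ednrb-/- caudal replicate 2 (adjusted p 0.0505 to 0.0637).

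Fgf3, a ligand of the tailbud, stood above all trunk libraries in 6 of the 8 caudal libraries. It stood at 0.0229, 0.0342, 0.123 and 0.136 FPKM in WT trunk and 0.122, 0.137, 0.192 and 0.196 FPKM in Ednrb-/- trunk libraries, or 2 to 18 reads. Caudal libraries held 0.0701, 0.525, 0.670 and 0.917 FPKM in WT and 0.170, 1.04, 1.07 and 1.49 FPKM in Ednrb-/-. In each caudal group 1 library was at trunk levels, WT replicate 4 (6 reads) and Ednrb-/- replicate 2 (14 reads). The same 2 libraries had the lowest sums of the 10 tailbud and presomitic markers in their groups. The WT library had 12.5 FPKM against 23.8 to 33.0 in the other WT caudal libraries. The Ednrb-/- library had 28.6 FPKM against 41.1 to 54.4 in the other Ednrb-/- caudal libraries. Its sum still lay above those of WT caudal replicates 1 and 2 (23.8 and 27.1 FPKM), which held more Fgf3 (0.525 and 0.670 FPKM). In its group its Fgf17 (0.821 FPKM) was lowest, its Fgf8 (1.59 FPKM) was not, and its Fgf20 (0.304 FPKM) was highest. The part of tailbud content in the Fgf3 values was not tested. The caudal genotype difference was 0.43 ± 0.30 (adjusted p = 0.264), and without Ednrb-/- caudal replicate 2 it was 0.77 (adjusted p = 0.02). Trunk and caudal tissue differed by -1.02 ± 0.30 in Ednrb-/- (adjusted p = 0.0141, lost without Ednrb-/- caudal replicate 4 at 0.0536 and without the 3 libraries with Xist and Ddx3y at 0.0777). In WT the difference was -0.78 ± 0.30 (adjusted p = 0.0815), and without WT caudal replicate 4 it was -1.05 (adjusted p = 0.016). The WT difference also passed without Ednrb-/- caudal replicate 2, through the shared spread (adjusted p = 0.0211).

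**Figure D2:**
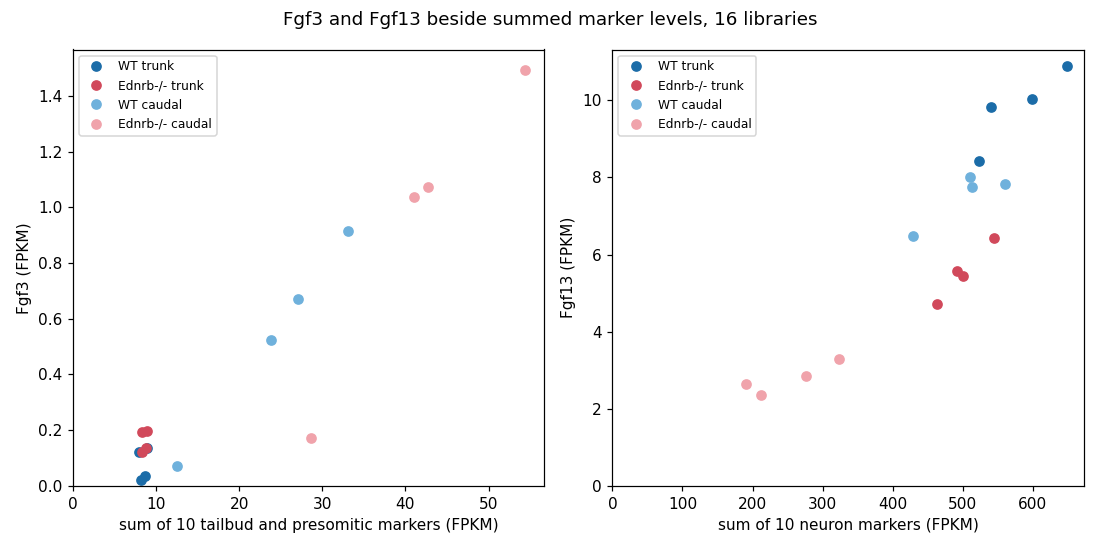
FPKM of Fgf3 against the summed FPKM of 10 tailbud and presomitic markers (left) and of Fgf13 against the summed FPKM of 10 neuron markers (right), 1 point per library, colored by group. The WT caudal and Ednrb-/- caudal points lowest in Fgf3 are also the lowest of their groups in the tailbud sum; the Ednrb-/- caudal libraries sit apart at 190 to 324 FPKM of neuron markers and 2.36 to 3.28 FPKM of Fgf13.

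Fgf5 and Fgf2 did not pass the test for genotype in either region. Fgf5, a ligand known for its control of hair growth, was a trunk gene. It stood at 1.68, 1.99, 2.31 and 2.32 FPKM in WT trunk against 0.477, 0.634, 0.744 and 0.836 FPKM in WT caudal libraries, and at 1.99, 2.05, 2.26 and 2.77 FPKM against 0.489, 0.532, 0.930 and 0.953 FPKM in Ednrb-/-. The regions did not overlap in either genotype, with differences of 1.14 ± 0.15 in WT (adjusted p = 9.34e-05) and 1.19 ± 0.15 in Ednrb-/- (adjusted p = 2.83e-05). Its genotype difference was 0.05 ± 0.15 in the caudal region (95% interval -0.26 to 0.36) and 0.10 ± 0.15 in the trunk (-0.21 to 0.42). Fgf2, basic FGF, ranged from 0.377 to 0.847 FPKM over the 16 libraries, and its genotype intervals were -0.23 to 0.21 and -0.22 to 0.23. Fgf2 shares its locus with Nudt6 and Fgf7 with Fam227b, so reads of these pairs may have been split. Fgf16 was at 0 in 12 of 16 libraries and at most 0.162 FPKM. Fgf20 reached 0.304 FPKM, or 18 reads. Its caudal FPKM lay above its trunk FPKM in each genotype, but not by read count: in WT the lowest caudal library and 3 trunk libraries each held 2 reads, and in Ednrb-/- the lowest caudal and the highest trunk library each held 10 reads. For Fgf20 the exact permutation test gave p = 0.0286 in each region comparison, the smallest that 4 against 4 libraries allow, and 0.114 after adjustment over 8 tests (two-sided).

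**Figure D3:**
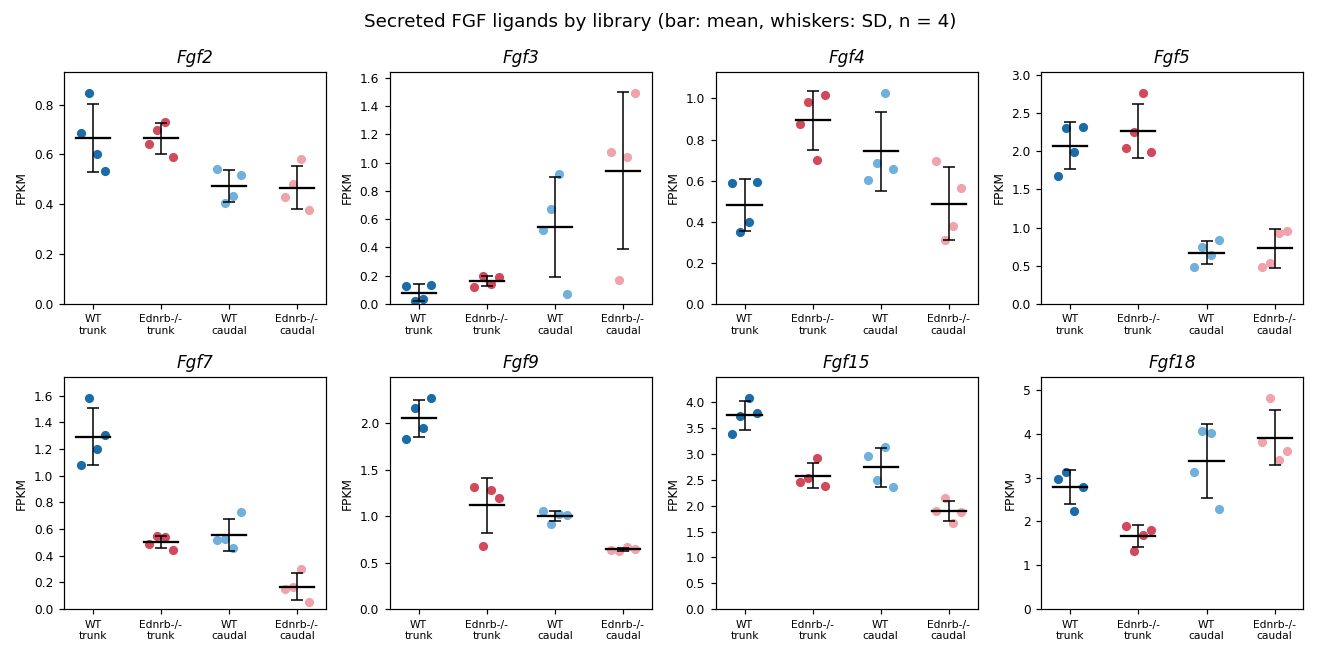
FPKM of 8 secreted ligands in the 16 libraries, with the mean (bar) and SD (whiskers) of the 4 libraries of each group. Fgf7, Fgf9 and Fgf15 were lower in Ednrb-/- than in WT libraries of both regions, and Fgf5 was high in trunk and low in caudal tissue in both genotypes.

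The intracellular homologous factors Fgf13, Fgf11 and Fgf12 had the 3 largest caudal genotype differences of the 30 genes on the log2(FPKM + 0.5) scale. By the ratio of mean FPKM, Ednrb-/- over WT, Fgf7 (0.302) stood below Fgf12 (0.326) and Fgf13 (0.371). In the caudal region 3 of 4 were lower in Ednrb-/- tissue, with a median of -1.05, and in the trunk 4 of 4, with a median of -0.70. Over all tested genes 19.9% and 13% were called lower. Summed over the 4 genes, WT trunk libraries held 17.2 to 20.4 FPKM and Ednrb-/- trunk libraries 9.24 to 12.1 FPKM, and the caudal libraries 10.2 to 12.8 FPKM in WT and 3.83 to 5.07 FPKM in Ednrb-/-. Fgf11 stood at 2.53, 2.60, 3.24 and 3.30 FPKM in WT caudal and 0.576, 0.886, 0.911 and 1.11 FPKM in Ednrb-/- caudal libraries. It stood at 6.88, 7.20, 7.70 and 7.85 FPKM in WT trunk and 3.50, 4.15, 4.17 and 4.34 FPKM in Ednrb-/- trunk libraries. The order was WT trunk, Ednrb-/- trunk, WT caudal and Ednrb-/- caudal, with no overlap between neighbours. Fgf11 fell by 1.32 ± 0.11 in the caudal region (adjusted p = 2.01e-06) and by 0.80 ± 0.11 in the trunk (adjusted p = 0.000161). The interaction was 0.52 ± 0.16 (adjusted p = 0.0579), and it passed in 6 alternatives (0.00942 to 0.0487): the pseudocount of 0.1, the TPM scale, voom and the fits without WT caudal replicate 2, Ednrb-/- trunk replicate 4 or Ednrb-/- caudal replicate 1.

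Fgf13, the homologous factor with the highest mean in each group, stood at 6.49, 7.75, 7.83 and 8.00 FPKM in WT caudal and 2.36, 2.65, 2.85 and 3.28 FPKM in Ednrb-/- caudal libraries. The trunk values were 8.43, 9.82, 10.0 and 10.9 FPKM in WT and 4.71, 5.43, 5.58 and 6.44 FPKM in Ednrb-/-. Fgf13 fell by 1.29 ± 0.10 in the caudal region (adjusted p = 1.37e-06) and by 0.77 ± 0.10 in the trunk (adjusted p = 0.000119), and genotypes did not overlap. The interaction was 0.52 ± 0.14 (adjusted p = 0.0432), and that call was lost in 15 of 27 alternatives (0.0542 to 0.0957), 12 of them with 1 library left out (all but WT trunk replicate 3, WT caudal replicate 2, Ednrb-/- trunk replicate 4 and Ednrb-/- caudal replicate 3). The trunk libraries stood above the caudal ones in each genotype, by 0.36 ± 0.10 in WT (adjusted p = 0.0229) and 0.88 ± 0.10 in Ednrb-/- (adjusted p = 1.69e-05). The WT call was lost without each of WT caudal replicate 2 and WT trunk replicates 3 and 4, and without the 3 libraries with Xist and Ddx3y (0.0559 to 0.0804). Fgf13 lies on chromosome X at chrX:58107505-58613431, and a sex term kept both genotype calls but not the interaction call (adjusted p = 0.0549).

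Fgf12 and Fgf14 were expressed at lower levels. Fgf12 stood at 0.784, 0.816, 0.857 and 1.06 FPKM in WT caudal and 0.204, 0.280, 0.297 and 0.366 FPKM in Ednrb-/- caudal libraries, and fell by 0.81 ± 0.10 (adjusted p = 2.37e-05). In trunk libraries it stood at 1.00, 1.15, 1.26 and 1.33 FPKM in WT and 0.504, 0.543, 0.604 and 0.668 FPKM in Ednrb-/-, and fell by 0.64 ± 0.10 (adjusted p = 0.000394). The genotypes did not overlap in either region. Fgf14 stood at 0.865, 1.09, 1.10 and 1.16 FPKM in WT trunk and 0.522, 0.539, 0.725 and 0.751 FPKM in Ednrb-/- trunk libraries, without overlap, and fell by 0.46 ± 0.12 (adjusted p = 0.0124). Caudal Fgf14 stood at 0.347, 0.621, 0.629 and 0.636 FPKM in WT and 0.305, 0.409, 0.412 and 0.509 FPKM in Ednrb-/-, a difference of -0.21 ± 0.12 (adjusted p = 0.174). Its lowest WT caudal value, in replicate 2, lay inside the Ednrb-/- range, and without that library the difference was -0.32 (adjusted p = 0.0372). Without all 3 libraries with Xist and Ddx3y it was -0.37 (adjusted p = 0.0255). Fgf14 and Fgf9 are on chromosome 14, 20.1 Mb and 45.7 Mb from Ednrb, and Il17rd is on the same chromosome 77.2 Mb away.

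Markers of neurons moved with these genes in the caudal region. Of 10 neuron markers, 9 were called lower and 1 higher in Ednrb-/- caudal tissue, and 1 lower and 1 higher in the trunk. Their summed level was 429 to 560 FPKM in WT caudal and 190 to 324 FPKM in Ednrb-/- caudal libraries, and 524 to 649 FPKM against 463 to 544 FPKM in the trunk, so that the trunk genotypes overlapped in the sum and did not in Fgf11, Fgf12, Fgf13 or Fgf14. Gap43, Stmn2 and Map2, genes of growing axons and dendrites, fell by 1.16 ± 0.10, 1.54 ± 0.18 and 1.15 ± 0.14 in the caudal region. Of the 10 neuron markers, 0 were listed at 0 in any group. The part of neuron content in the results for the homologous factors was not tested.

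Receptor genes changed in different directions. In the caudal region Fgfr2 was higher and Fgfr3 and Fgfr4 lower in Ednrb-/- tissue, and in the trunk Fgfr2 was higher and Fgfr4 lower. Fgfr4 had the largest differences. It stood at 2.98, 3.34, 3.74 and 4.76 FPKM in WT trunk and 1.43, 1.59, 1.96 and 2.07 FPKM in Ednrb-/- trunk libraries, and fell by 0.89 ± 0.13 (adjusted p = 0.000226). In caudal libraries it stood at 1.62, 1.79, 1.80 and 2.20 FPKM in WT and 0.967, 0.973, 1.23 and 1.30 FPKM in Ednrb-/-, and fell by 0.54 ± 0.13 (adjusted p = 0.00353). Genotypes did not overlap in either region, while the Ednrb-/- trunk and WT caudal ranges did. Of the summed FPKM of the 4 receptors, Fgfr4 made up 9.60% ± 1.62 (SD, n = 4) in WT trunk, 4.60% ± 0.976 in Ednrb-/- trunk, 4.16% ± 0.424 in WT caudal and 2.63% ± 0.388 in Ednrb-/- caudal tissue. Of 10 muscle-lineage markers, 6 were called lower and 1 higher in the caudal region and 5 lower and 2 higher in the trunk. Their sum was 305 to 379 FPKM in WT trunk and 231 to 242 FPKM in Ednrb-/- trunk libraries, and 188 to 207 FPKM against 96.4 to 116 FPKM in caudal libraries. Their part in the Fgfr4 result was not tested.

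Fgfr2, the main receptor of epithelia for Fgf7 in its IIIb form, was a caudal gene in both genotypes. It stood at 13.2, 13.4, 13.5 and 13.9 FPKM in WT caudal and 14.6, 14.8, 16.0 and 16.4 FPKM in Ednrb-/- caudal libraries, and rose by 0.19 ± 0.05 (adjusted p = 0.00573). Trunk libraries held 9.14, 9.25, 9.43 and 9.61 FPKM in WT and 9.66, 10.2, 11.0 and 11.3 FPKM in Ednrb-/-, and Fgfr2 rose by 0.16 ± 0.05 (adjusted p = 0.024). The genotypes did not overlap in either region, and the order ran from WT trunk over Ednrb-/- trunk and WT caudal to Ednrb-/- caudal. Its share of receptor FPKM was 24.4% ± 1.22 in WT trunk and 36.4% ± 1.62 in Ednrb-/- caudal tissue. The caudal call was lost on the TPM scale (adjusted p = 0.126). The trunk call was lost in 4 alternatives (0.0505 to 0.0813), with only the groups compared and without each of WT trunk replicate 2 and Ednrb-/- trunk replicates 2 and 4. In the deposited table Fgfr2 spans chr7:129764181-132725079, which takes in 71 other listed genes, so its reads could not be assigned with certainty. Surface ectoderm and endoderm markers were set beside it. Of 9 tested endoderm markers, 7 were called higher and 0 lower in Ednrb-/- caudal tissue, and 4 higher and 1 lower in the trunk. Over all tested genes 21.7% were called higher and 19.9% lower in the caudal region, and 12.2% and 13% in the trunk. Endoderm sums were 21.9 to 26.7 FPKM in WT caudal and 42.6 to 54.7 FPKM in Ednrb-/- caudal libraries, and 16.3 to 21.5 FPKM against 23.8 to 27.3 FPKM in the trunk. Of 10 surface ectoderm markers 3 were called higher and 3 lower in the caudal region, and 2 higher and 4 lower in the trunk. Surface ectoderm sums were 50.05 to 66.45 FPKM in WT caudal and 56.6 to 69.9 FPKM in Ednrb-/- caudal libraries, which overlapped. In the trunk they were lower in Ednrb-/- (35.6 to 40.3 FPKM) than in WT (45.2 to 57.05 FPKM), where Fgfr2 was higher. The part of either list in the Fgfr2 result was not tested.

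Fgfr3, expressed in neural progenitors and cartilage, had genotype differences of opposite sign in the 2 regions. Caudal libraries held 8.64, 8.70, 9.11 and 10.5 FPKM in WT and 6.59, 6.87, 7.42 and 8.01 FPKM in Ednrb-/-, without overlap, and Fgfr3 fell by 0.33 ± 0.09 (adjusted p = 0.00623). Trunk libraries held 6.40, 7.74, 8.34 and 8.56 FPKM in WT and 8.42, 8.87, 9.52 and 9.86 FPKM in Ednrb-/-, which overlapped, a difference of 0.23 ± 0.09 (adjusted p = 0.0628). The interaction was 0.56 ± 0.12 (adjusted p = 0.016) and was called in each of the 27 alternatives. Without WT trunk replicate 4 the trunk difference passed the test too (0.28, adjusted p = 0.0445). Of 10 neural progenitor markers, 3 were called higher and 1 lower in the caudal region and 2 higher and 1 lower in the trunk. Their median genotype difference was 0.068 in the caudal region and 0.198 in the trunk on the log2 scale. Their sum, which is weighted toward the genes with the highest FPKM, went the other way. It was 233 to 292 FPKM in WT caudal and 171 to 191 FPKM in Ednrb-/- caudal libraries, and 264 to 356 FPKM against 233 to 247 FPKM in the trunk. The sum is therefore no measure of the list as a whole, and the part of these markers in the Fgfr3 result was not tested. Fgfr1, the receptor of most mesenchyme, had the highest mean of the 4 receptors in each group, 17.1 to 19.9 FPKM, and a share of 43.9% to 45.8% of receptor FPKM. Its genotype difference was -0.09 ± 0.04 in the caudal region (adjusted p = 0.118) and -0.04 ± 0.04 in the trunk (adjusted p = 0.574). In 4 alternatives the caudal difference of Fgfr1 passed the test (0.00516 to 0.0423): the TPM scale, the sum of listed reads, voom and the fit without WT caudal replicate 3. Fgfrl1, which binds FGF but has no kinase, ranged from 12.0 to 16.2 FPKM, with genotype intervals of -0.26 to 0.05 in the caudal region and -0.28 to 0.03 in the trunk. The caudal difference passed the test on the TPM scale (-0.20, adjusted p = 0.0388).

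**Figure D4:**
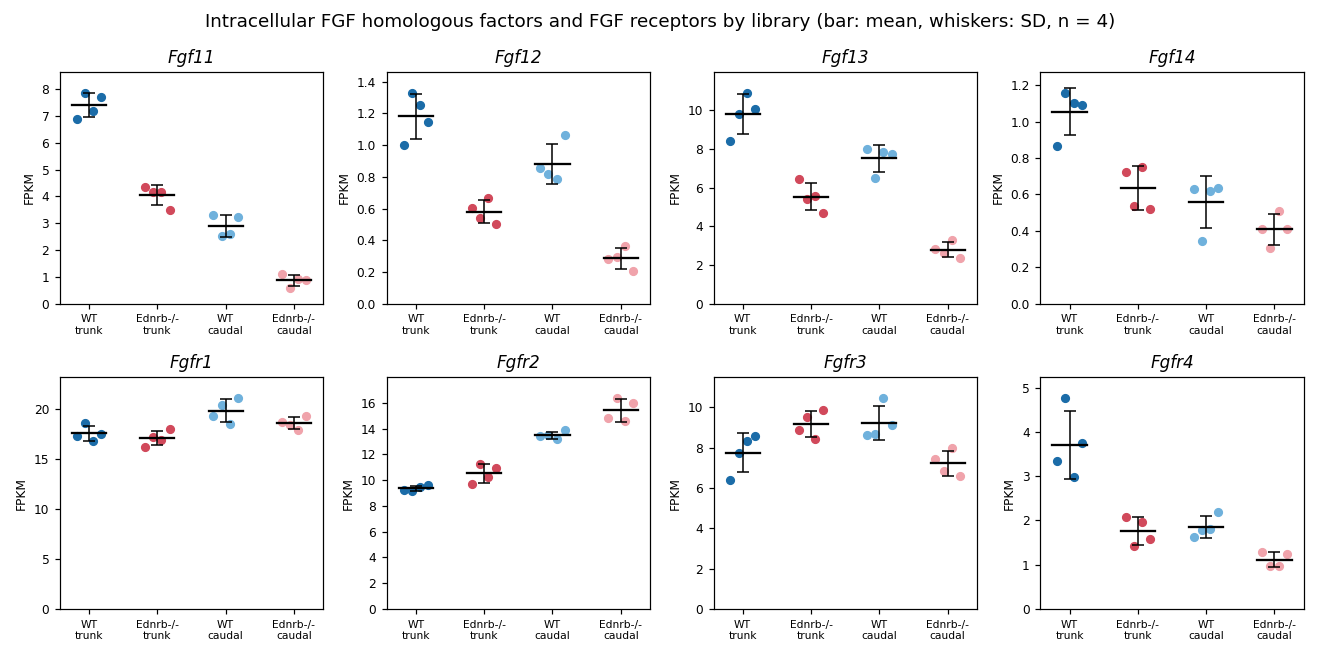
FPKM of the 4 homologous factors (upper row) and of Fgfr1 to Fgfr4 (lower row) in the 16 libraries, with the mean (bar) and SD (whiskers) of the 4 libraries of each group. Fgf11, Fgf12 and Fgf13 were lowest in Ednrb-/- caudal libraries and Fgfr2 was highest there, while Fgfr4 was highest in WT trunk libraries.

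Among the ERK feedback genes and ETS factors, 5 of 11 were higher and 0 lower in Ednrb-/- trunk tissue, where 12.2% of all genes were higher and 13% lower. In Ednrb-/- caudal tissue 2 of the 11 were higher and 1 lower, where 21.7% of all genes were higher and 19.9% lower. Dusp6, the ERK phosphatase most often used as a readout of FGF signalling, was raised in both. It stood at 21.3, 22.6, 24.6 and 26.2 FPKM in WT trunk and 31.2, 31.4, 31.9 and 34.1 FPKM in Ednrb-/- trunk libraries, and rose by 0.44 ± 0.07 (adjusted p = 0.000394). Caudal libraries held 23.8, 24.0, 26.4 and 26.5 FPKM in WT and 28.4, 29.5, 30.4 and 34.9 FPKM in Ednrb-/-, and Dusp6 rose by 0.28 ± 0.07 (adjusted p = 0.00367). All 8 Ednrb-/- libraries lay above all 8 WT libraries. Dusp6 was called in both regions under each alternative, and the difference between regions did not pass the test in WT (95% interval -0.23 to 0.06) or in Ednrb-/- (-0.08 to 0.21).

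Spred2, a brake on RAF activation, stood at 9.67, 10.0, 11.3 and 11.46 FPKM in WT trunk and 12.6, 12.9, 14.4 and 14.6 FPKM in Ednrb-/- trunk libraries, and rose by 0.35 ± 0.07 (adjusted p = 0.00156). Caudal libraries held 12.2, 12.5, 13.4 and 13.5 FPKM in WT and 13.8, 14.5, 14.6 and 16.1 FPKM in Ednrb-/-, and Spred2 rose by 0.19 ± 0.07 (adjusted p = 0.0313). Neither pair of groups overlapped. The caudal call was lost in 9 of 28 alternatives (0.0531 to 0.279), namely no filter, the TPM scale, the sum of listed reads, voom and the fits without WT caudal replicates 2 or 4, Ednrb-/- caudal replicates 2 or 4, or the 3 libraries with Xist and Ddx3y (0.0555). Its relative Spred3, best known from the nervous system, behaved otherwise. It stood at 4.26, 5.15, 5.30 and 5.67 FPKM in WT caudal and 3.08, 3.12, 3.26 and 3.65 FPKM in Ednrb-/- caudal libraries, and fell by 0.56 ± 0.07 (adjusted p = 3.11e-05). Trunk libraries held 5.43, 5.61, 5.84 and 6.19 FPKM in WT and 5.59, 5.67, 5.69 and 5.93 FPKM in Ednrb-/-, with a 95% interval of -0.16 to 0.14 for the difference. The interaction was 0.55 ± 0.10 (adjusted p = 0.00789) and was called in each of the 27 alternatives. Spred3 overlaps Ggn on the other strand, and the neuron markers that fell in the caudal region (9 of 10) also moved with it; their part was not tested.

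The ETS factors Etv4 and Etv5 and the inhibitor Il17rd were raised in the trunk. Etv4 stood at 5.67, 6.46, 6.55 and 7.11 FPKM in WT trunk and 8.50, 9.18, 9.85 and 9.97 FPKM in Ednrb-/- trunk libraries, and rose by 0.51 ± 0.07 (adjusted p = 0.000198). Caudal Etv4 stood at 7.22, 7.63, 7.84 and 9.15 FPKM in WT and 7.62, 7.65, 7.86 and 8.01 FPKM in Ednrb-/-, with overlap and a 95% interval of -0.18 to 0.13. The interaction was 0.53 ± 0.10 (adjusted p = 0.00907) and was called in each of the 27 alternatives. In WT, Etv4 was lower in trunk than in caudal tissue, with a trunk minus caudal difference of -0.28 ± 0.07 (adjusted p = 0.0137), and in Ednrb-/- it was higher in trunk by 0.25 ± 0.07 (adjusted p = 0.0138). The WT call was lost with only the groups compared in the fit (0.0524) and without the 3 libraries with Xist and Ddx3y (0.0632).

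Il17rd stood at 7.51, 7.54, 7.66 and 8.00 FPKM in WT trunk and 8.72, 8.79, 8.94 and 8.98 FPKM in Ednrb-/- trunk libraries, and rose by 0.20 ± 0.04 (adjusted p = 0.00394). In caudal libraries the values were 7.46, 7.57, 7.84 and 8.21 FPKM in WT and 7.05, 7.41, 7.87 and 7.92 FPKM in Ednrb-/-, a difference of -0.04 ± 0.04 with overlap that passed the test on the TPM scale (-0.13, adjusted p = 0.037). The trunk means were 7.68 and 8.86 FPKM, and the libraries did not overlap, with SDs of 0.223 and 0.121 FPKM. The interaction was 0.23 ± 0.06 (adjusted p = 0.0333), a call lost in 9 of 27 alternatives (0.053 to 0.123). These were no filter, the fit without the 3 libraries with Xist and Ddx3y, and the fits without WT trunk replicates 1 or 2, WT caudal replicates 2 or 4, Ednrb-/- trunk replicates 1 or 3, or Ednrb-/- caudal replicate 2. Etv5 stood at 9.46, 9.75, 10.6 and 11.1 FPKM in WT trunk and at 11.59, 11.62 and 11.78 FPKM in 3 Ednrb-/- trunk libraries, with the other also above all WT trunk libraries, and rose by 0.18 ± 0.05 (adjusted p = 0.0186). Caudal Etv5 stood at 10.2, 10.6, 11.1 and 11.48 FPKM in WT and 9.85, 9.86, 10.1 and 10.9 FPKM in Ednrb-/-, a difference of -0.09 ± 0.05 (adjusted p = 0.165) that passed the test on the TPM scale (-0.19, adjusted p = 0.0043), with the sum of listed reads and with voom. The Etv5 trunk call was lost without WT trunk replicates 1 or 3 and without the 3 libraries with Xist and Ddx3y (0.0511 to 0.0614). Its interaction of 0.27 ± 0.07 (adjusted p = 0.0378) was lost in 14 of 27 alternatives (0.0512 to 0.136), 12 of them with 1 library left out (all but WT trunk replicates 2 and 4, WT caudal replicate 4 and Ednrb-/- caudal replicate 2).

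**Figure D5:**
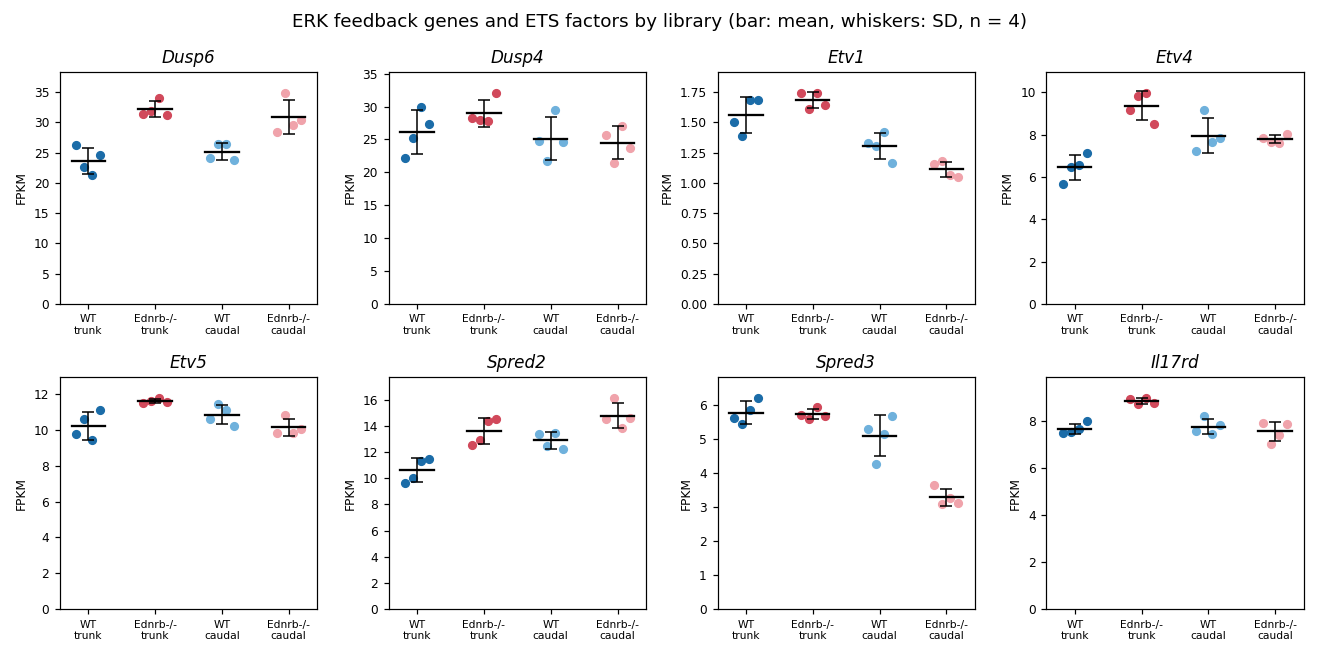
FPKM of 8 ERK feedback genes and ETS factors in the 16 libraries, with the mean (bar) and SD (whiskers) of the 4 libraries of each group. All Ednrb-/- libraries were above all WT libraries in Dusp6, Etv4 was highest in Ednrb-/- trunk libraries, and Spred3 was lowest in Ednrb-/- caudal libraries.

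The other feedback genes and Etv1 did not pass the test for genotype in either region. Spry1 and Spry4, Sprouty inhibitors of RAS activation, had 95% intervals of -0.11 to 0.29 and -0.20 to 0.23 in the caudal region and -0.16 to 0.24 and -0.22 to 0.20 in the trunk. Spry1 ranged from 4.18 to 5.96 FPKM and Spry4 from 2.08 to 3.33 FPKM over the 16 libraries. Dusp4, a nuclear phosphatase of ERK, ranged from 21.4 to 32.1 FPKM, with differences of -0.03 ± 0.10 and 0.15 ± 0.10 (adjusted p = 0.817 and 0.292). Spred1, the Spred gene with the highest mean in each group, stood at 20.5, 20.6, 21.1 and 21.2 FPKM in WT trunk and 21.5, 22.3, 22.8 and 23.1 FPKM in Ednrb-/- trunk libraries. The ranges did not overlap and the difference of 0.10 ± 0.04 missed the threshold (adjusted p = 0.067). It passed without Ednrb-/- caudal replicate 2, whose Spred1 value lay above the other 3 of its group (adjusted p = 0.0297). In the caudal region the Spred1 difference was -0.06 ± 0.04 (adjusted p = 0.226) and passed on the TPM scale, with the sum of listed reads, with voom and without Ednrb-/- caudal replicate 2 (0.00175 to 0.0405). Etv1 stood at 1.05 to 1.74 FPKM, with a caudal difference of -0.16 ± 0.07 (adjusted p = 0.0754) that passed under the same 3 scalings and without WT caudal replicate 4 (0.00634 to 0.0451).

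The FLRT proteins are adhesion molecules that bind FGF receptors, and the 2 genes were called in opposite directions in the caudal region. Flrt2 stood at 13.2, 15.4, 16.7 and 17.1 FPKM in WT caudal and 10.7, 11.3, 11.4 and 12.6 FPKM in Ednrb-/- caudal libraries, and fell by 0.42 ± 0.08 (adjusted p = 0.000507). In trunk libraries it stood at 18.0, 18.7, 19.2 and 19.5 FPKM in WT and 13.6, 15.4, 16.0 and 16.9 FPKM in Ednrb-/-, and fell by 0.28 ± 0.08 (adjusted p = 0.0157), a call lost without Ednrb-/- trunk replicate 4 (0.055). Flrt2 values did not overlap between genotypes of either region. Flrt3, known from epithelia and limb, stood at 13.7, 15.9, 16.2 and 16.2 FPKM in WT caudal and 17.2, 17.6, 17.7 and 17.8 FPKM in Ednrb-/- caudal libraries, and rose by 0.18 ± 0.06 (adjusted p = 0.0219). That call was lost in 5 of 28 alternatives (0.0511 to 0.322): the TPM scale, the sum of listed reads, voom and the fits without WT caudal replicate 3 or Ednrb-/- caudal replicate 4. The trunk difference of Flrt3 was 0.15 ± 0.06 (adjusted p = 0.0799) and passed without WT trunk replicate 1 (0.20, adjusted p = 0.0117) or WT caudal replicate 3 (adjusted p = 0.0384).

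Trunk and caudal tissue differed in 13 of the 30 genes in WT, 9 higher and 4 lower in trunk, where 18% of all genes were called (9.69% higher and 8.35% lower). In Ednrb-/- tissue 20 of the 30 differed, 17 higher and 3 lower in trunk, where 36.2% of all genes were called (17.3% higher and 18.9% lower). The medians were 0.04 in WT and 0.26 in Ednrb-/- on the log2 scale, against 0.0023 and -0.012 over all genes. Each region comparison shares its libraries with the genotype comparisons, so their values are only set side by side. Fgf5, Fgf7, Fgf9, Fgf11, Fgf13, Fgf15, Fgfr4 and Flrt2 were higher in trunk in both genotypes, and Fgfr2 was higher in caudal tissue in both. Fgf7 was higher in trunk by 0.76 ± 0.12 in WT and 0.60 ± 0.12 in Ednrb-/-, Fgf9 by 0.76 ± 0.12 and 0.48 ± 0.12, and Fgf11 by 1.22 ± 0.11 and 1.74 ± 0.11. Fgfr4 was higher in trunk by 0.83 ± 0.13 in WT and 0.48 ± 0.13 in Ednrb-/-.

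An interaction was called for 8 of the 30 genes. For 7 of these 8, the genotype difference was more positive in the trunk, and for Fgf18 it was more positive in the caudal region. The background was 3.78% of all genes in the first direction and 2.98% in the second. In Ednrb-/- tissue Spred3 was higher in trunk by 0.72 ± 0.07 (adjusted p = 4.41e-06), and in WT its difference was 0.17 ± 0.07 (adjusted p = 0.118). Fgf18 was lower in trunk in Ednrb-/- tissue (-1.01 ± 0.15, adjusted p = 0.000129), and its WT difference was -0.22 ± 0.15 (adjusted p = 0.351). Fgfr3 was higher in trunk in Ednrb-/- tissue (0.33 ± 0.09, adjusted p = 0.00883) and had a difference of -0.24 ± 0.09 in WT (adjusted p = 0.0692). All 3 ETS factors were higher in trunk in Ednrb-/- tissue, Etv1 by 0.44 ± 0.07, Etv4 by 0.25 ± 0.07 and Etv5 by 0.19 ± 0.05, while in WT Etv4 was lower in trunk and Etv1 and Etv5 did not pass the test. Without the 3 libraries with Xist and Ddx3y, 9 genes were called between regions in WT and 16 in Ednrb-/-, and 6 had a called interaction. Fgf3, Fgf15, Fgfr4, Spred1 and Etv5 then missed the threshold between regions in Ednrb-/- (adjusted p 0.0777, 0.0573, 0.0805, 0.133 and 0.0576, against 0.0141, 0.0055, 0.00924, 0.0182 and 0.0097 with all libraries), and Dusp4 passed it (0.0461 against 0.0698). In WT, Fgf13, Fgfr1, Etv4 and Flrt2 then missed it (0.0771, 0.0749, 0.0632 and 0.0567, against 0.0229, 0.0164, 0.0137 and 0.0258). Flrt2 in WT was also lost with no filter and without each of WT caudal replicates 2 and 3 and WT trunk replicates 1, 2 and 3 (0.0505 to 0.079), and Fgfr1 without WT caudal replicate 2 or WT trunk replicate 3 (0.053 and 0.0514). In Ednrb-/-, Fgf4 was lost without Ednrb-/- caudal replicate 2 (0.0512), and Spred1 without Ednrb-/- caudal replicate 4, without Ednrb-/- trunk replicate 3 or with only the groups compared in the fit (0.0522 to 0.0577).

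Other genes of the pathway were taken from lists made for this description. Of 12 other ligands and ligand partners 5 were tested, with 2 higher and 2 lower in Ednrb-/- caudal tissue and 1 higher and 0 lower in the trunk. These are 80% and 20% of the 5 genes, where 41.6% and 25.1% of all tested genes were called. Fgf8 and Fgf17, ligands of the tailbud, were called higher in Ednrb-/- than in WT caudal tissue. Fgf8 had means of 1.55 and 0.823 FPKM and rose by 0.72 ± 0.23 (adjusted p = 0.0214), and its genotypes did not overlap. Fgf17 had means of 1.86 and 0.694 FPKM and rose by 0.99 ± 0.29 (adjusted p = 0.0132). Its libraries overlapped, at 0.821 to 3.23 FPKM in Ednrb-/- and 0.209 to 1.46 FPKM in WT. Fgf8 was the only 1 of the 5 tested genes without overlap between the caudal genotypes. In the same comparison 5 of 10 tailbud and presomitic markers were called higher and 0 lower, and their sum was 12.5 to 33.0 FPKM in WT and 28.6 to 54.4 FPKM in Ednrb-/- caudal libraries. Limb bud markers moved as well, 7 of 10 higher and 1 lower, with sums of 58.3 to 85.8 FPKM and 93.4 to 102 FPKM. The part of tailbud and limb bud content in these values was not tested. Fgf6, a ligand of skeletal muscle, fell by 0.53 ± 0.12 in Ednrb-/- caudal tissue (adjusted p = 0.003) and rose by 0.84 ± 0.12 in the trunk (adjusted p = 0.00026). The muscle-lineage markers given beside Fgfr4 had 6 called lower and 1 higher in the caudal region and 5 lower and 2 higher in the trunk, and their part in the Fgf6 result was not tested. Fgfbp3, a carrier that releases FGF from the matrix, fell by 0.32 ± 0.12 in the caudal region (adjusted p = 0.037). The alternatives were not read for the single genes of these other lists.

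Of 13 further feedback and target genes, 11 were tested, with 4 higher and 3 lower in Ednrb-/- caudal tissue and 5 higher and 2 lower in the trunk, where 41.6% and 25.1% of all genes were called. The ERK phosphatases Dusp5 and Dusp9 rose in both regions. Dusp9 rose by 1.16 ± 0.15 in the caudal region (means 34.8 and 15.3 FPKM in Ednrb-/- and WT, adjusted p = 4.29e-05) and by 0.99 ± 0.15 in the trunk (means 14.3 and 6.90 FPKM, adjusted p = 0.000389). Dusp5 rose by 1.02 ± 0.11 (adjusted p = 9.93e-06) and 0.67 ± 0.11 (adjusted p = 0.000664). Ier2, an immediate early gene, rose by 0.21 ± 0.06 and 0.50 ± 0.06, and Cbl, a ubiquitin ligase of receptors, by 0.20 ± 0.04 and 0.30 ± 0.04. The genes called lower, named here after their values were seen, included the immediate early genes Egr1 and Fos in the caudal region. Egr1 fell by 0.44 ± 0.13 (adjusted p = 0.0107) and Fos by 0.47 ± 0.13 (adjusted p = 0.00754) there, and Nf1, which turns RAS off, fell by 0.14 ± 0.05 (adjusted p = 0.0378). In the trunk Fos fell by 0.38 ± 0.13 (adjusted p = 0.0395) and the Sprouty gene Spry2 by 0.23 ± 0.07 (adjusted p = 0.0338).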

How the data were processed

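Bulk RNA sequencing of 16 libraries, 4 in each of 4 groups, was deposited by the authors as a single table of FPKM values for 56748 genes. RNA was extracted with TRIzol and standard Illumina libraries were made, per the labels' protocols. Reads were trimmed with fastp, aligned to mm39 with HISAT2 2.0.5 and counted with featureCounts 1.5.0-p3, per the submitters' processing notes. Neither the annotation release nor the strand setting is stated in those notes. FPKM and gene length gave whole reads for 100% of values (tolerance 0.01 of a read), 34883821 to 43444905 per library, so counting error is small except for members with few reads.

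Groups came from the sample titles. limma 3.58.1 in R 4.3.3 was fitted on log2(FPKM + 0.5) with 4 group means and trended variance, over 17205 genes with at least 0.5 FPKM in 4 libraries, with Benjamini-Hochberg adjustment over all of them and calls at 0.05. All adjusted p-values are from limma unless an exact test is named, and fold changes on this scale understate changes of low genes. Members below the filter had two-sided exact permutation tests. The procedure was also run on simulated data, with far fewer changed genes than were called here and none of them at low FPKM. That run therefore does not cover low members or the large share of called genes. All 32 genes are accounted for, and up to 4 genes of any other list were named per comparison, by adjusted p. An exception is the further feedback and target list, whose lowered genes were named in addition, after their values were seen. The members and lists were chosen with earlier results of these data known. Alternatives were other pseudocounts, filters and scalings, limma voom on the reads, only the compared groups, a replicate block, a sex term, and libraries left out. Promoters came from RefSeq on GRCm38.p6. A list of signal relay genes is not reported here.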

Additional observations from a re-analysis of the deposited data

Results flagged for a closer look

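In 120 groups of 4 libraries (30 genes in 4 groups), 6 had a library far from the other 3 by Dixon's criterion at 95%, which chance alone meets in about 1 in 20 groups. Fgf13 was low in WT caudal replicate 2 (6.485 FPKM, next 7.751), and so was Fgf14 (0.3466 FPKM, next 0.6209). This library is among the 3 with both Xist and Ddx3y. Spred1 was high in Ednrb-/- caudal replicate 2 (22.1 FPKM, next 19.99), and Dusp4 in Ednrb-/- trunk replicate 4 (32.07 FPKM, next 28.29). Flrt3 was high in WT trunk replicate 1 (17.35 FPKM, next 14.8) and low in WT caudal replicate 3 (13.73 FPKM, next 15.93).

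The genotype difference itself differed between trunk and caudal tissue, by limma's interaction term, for 8 genes. The trunk minus caudal value was 0.844 for Fgf4, the ligand higher in Ednrb-/- trunk tissue (adjusted p = 0.0265), and 0.518 for the homologous factor Fgf13 (adjusted p = 0.0432). It was -0.795 for Fgf18 (adjusted p = 0.0385) and 0.565 for Fgfr3 (adjusted p = 0.016). Among feedback genes it was 0.552 for Spred3 (adjusted p = 0.00789) and 0.233 for Il17rd (adjusted p = 0.0333). For the ETS factors it was 0.534 for Etv4 (adjusted p = 0.00907) and 0.269 for Etv5 (adjusted p = 0.0378).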

How the results depend on the processing

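Of 4150 values of members under the alternatives, 3964 kept their side of the threshold, 108 lost a call and 78 gained one. The direction of a called value reversed in 0 cases. Values without a call that changed sign and stayed without one are among the 3964. With no filter on low values, 3 members instead of 8 had a called interaction. Leaving out each library in turn gave 12 to 15 called members for genotype in the caudal region, 14 to 18 in the trunk, 10 to 15 between regions in WT, 18 to 24 in Ednrb-/- and 3 to 8 for the interaction. Without the 3 libraries with Xist and Ddx3y the counts were 14, 16, 9, 16 and 6. In that setting 1 instead of 2 of the 8 exact tests of Fgf16 and Fgf20 had an unadjusted p under 0.05. With a library left out of each Ednrb-/- group, the exact region test there could not fall under 0.05 whatever its values. With the replicate number as a block the counts were 14, 17, 13, 23 and 7. A sex term gave 4 members higher and 10 lower for genotype in the caudal region, and 7 and 10 in the trunk. It gave 9 and 4 between regions in WT, 17 and 3 in Ednrb-/-, and 6 and 1 for the interaction. Same-numbered libraries correlated at -0.0836 to 0.109, not over 0.1 in every pair, so the numbers were not taken to pair the samples. WT replicate 4 had 148 FPKM of Xist and 0.122 of Ddx3y in trunk, and 0.819 and 18.3 FPKM in caudal tissue. For Ednrb-/- replicate 2 these were 135 and 0.977 FPKM in trunk, and 0.251 and 17.4 FPKM in caudal tissue. The trunk and caudal libraries of these numbers therefore cannot come from the same embryo. Whether other libraries share embryos is not known. The interaction could not be fitted with only the groups compared, since it uses all 4.

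Scaling moved the split of calls over all genes. In the caudal genotype comparison 3732 higher and 3432 lower became 2671 and 4352 with summed listed reads and 2613 and 4447 with voom. In the trunk 2092 and 2229 became 1642 and 2726, and 1729 and 2965. On the TPM scale 2982 and 3252 between regions in Ednrb-/- became 3936 and 1945, and the interaction went from 650 and 513 to 1130 and 299, or to 1187 and 447 with voom. The median of all genes moved by less than 0.1 under each scaling, at most from 0.0068 to -0.080 in the caudal genotype comparison. Depth limits Fgf3, Fgf16 and Fgf20, with 0 to 121 reads per library, and Fgf7 in Ednrb-/- caudal tissue, with 6 to 35.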

Other observations

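Heparan sulfate, the matrix sugar that FGF ligands need to engage their receptors, was covered by 20 genes for its synthesis, its trimming and its core proteins. In Ednrb-/- caudal tissue 3 were called higher and 3 lower than in WT, and in the trunk 2 higher and 5 lower, or 30% and 35% of the list where 41.6% and 25.1% of all tested genes were called, with medians of -0.0070 and -0.040 on the log2 scale. Sulf1, a sulfatase that trims the chains outside the cell, fell by 0.39 ± 0.07 in the caudal region (adjusted p = 0.000271) and by 0.40 ± 0.07 in the trunk (adjusted p = 0.000517). Hs3st1, a sulfotransferase, fell by 0.96 ± 0.16 (adjusted p = 0.000213) and 0.93 ± 0.16 (adjusted p = 0.000671). Among core proteins, Sdc1, a syndecan of epithelia, rose by 0.40 ± 0.08 in the caudal region (adjusted p = 0.00068), Sdc2 fell by 0.34 ± 0.08 there (adjusted p = 0.0027), and Gpc3, a glypican with a mean of 298 FPKM in WT trunk tissue, fell by 0.28 ± 0.05 in the trunk (adjusted p = 0.000596). Gpc3 was higher in trunk than in caudal tissue of WT by 0.38 ± 0.05 (adjusted p = 5.81e-05).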
